A study of Mus musculus with 26 samples.

Results

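Genes of glycolysis and of the response to low oxygen were followed in mouse hematopoietic cells. The list held 36 genes, of which 33 were measured among 19937 genes on the array. A listed gene counted as measured where the array annotation tied at least 1 probe set to it and to no other gene, and where there were several, the one brightest on average across the arrays stood for the gene. Gpi1 and Eno1 had no such probe set, and Gapdh occurred only in 11 probe sets that carry several gene symbols, so these 3 genes were not analysed here. Expression was profiled on 26 Affymetrix gene arrays of C57BL/6 cells in 8 groups. Wild-type long-term hematopoietic stem cells (LT-HSC, n = 4) and wild-type granulocyte macrophage progenitors (GMP, n = 4) had been sorted from bone marrow by flow cytometry. Lines immortalized from either kind of cell had been harvested from liquid medium. The LT-HSC-derived lines without doxycycline (dox) had 3 arrays at 48 h and 3 at 72 h, and those with dox had 2 arrays at 48 h and 3 at 72 h. The GMP-derived lines at 48 h had 3 arrays without dox and 4 with dox. The lines carry the names B6-1, B6-2 and B6-3 in both origins and F6-6 in the GMP-derived set. The series title names MLL-AF9, a fusion gene of acute myeloid leukaemia, and the study is known to have used mice in which dox induces this fusion, although the sample labels do not say so. What the hours count from, the promoter that drives the fusion, whether a line is a single clone, the oxygen level of the cultures and the gates of the sorts were not stated in the labels. They call the replicates biological, but nothing says that sorted replicates came from separate animals, so p-values on them measure only the spread between these samples.

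Glycolysis turns glucose into pyruvate, which is either reduced to lactate and exported or oxidized in mitochondria. When oxygen is low, the prolyl hydroxylases encoded by the Egln genes stop marking the HIF-1α protein for destruction, and the stabilized factor induces glucose transporters, nearly every glycolytic enzyme, lactate export, the pyruvate dehydrogenase kinase Pdk1 and the mitophagy receptor Bnip3. Several of these targets, Egln1, Egln3 and Kdm3a among them, encode oxygen-dependent enzymes themselves. Bone marrow LT-HSC are known for a quiescent state in a niche poor in oxygen and for reliance on glycolysis, and proliferating leukaemic cells are known for a high use of glucose.

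HIF binds a short element whose core reads ACGTG or GCGTG. The 300 bases around the RefSeq start sites (250 before to 50 after, assembly GRCm38.p6) were searched for both cores on both strands, and a CACGTG palindrome counts as a match on each strand. Of 44 promoters of 30 measured members, 34 (77.3%) held at least 1 core, against 43.8% of all 32851 promoters and 49.3% of 21262 promoters of protein-coding genes. The members' promoters also had a higher median GC content, 62.2% against 52.7% for all and 56.3% for protein-coding genes. A match is only a string in the sequence, and binding was not measured in this series. Slc2a3, Bnip3l and Ndrg1 had no promoter in the set. The promoters of 5 genes with changes described below, which are not the 5 of largest change, are shown: lactate dehydrogenase A, the mitophagy receptor, the first glucose transporter, phosphoglycerate kinase and the lactate exporter. They are read from RefSeq 5′ to 3′ on the strand of the gene, with both cores and their reverse complements in capitals.
Ldha, chr7:46845554-46845853, plus strand: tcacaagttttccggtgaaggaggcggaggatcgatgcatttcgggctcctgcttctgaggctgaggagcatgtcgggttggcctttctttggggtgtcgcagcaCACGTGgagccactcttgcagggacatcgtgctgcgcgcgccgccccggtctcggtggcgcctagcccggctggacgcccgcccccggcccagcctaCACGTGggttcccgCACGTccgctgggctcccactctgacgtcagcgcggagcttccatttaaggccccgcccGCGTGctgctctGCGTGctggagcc
Bnip3, chr7:138909457-138909756, minus strand: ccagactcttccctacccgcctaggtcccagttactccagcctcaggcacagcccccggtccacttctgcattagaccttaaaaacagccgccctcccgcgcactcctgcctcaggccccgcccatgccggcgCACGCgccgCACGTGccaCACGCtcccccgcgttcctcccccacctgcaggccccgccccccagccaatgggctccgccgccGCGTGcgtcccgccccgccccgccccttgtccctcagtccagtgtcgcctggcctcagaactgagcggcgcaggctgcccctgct
Slc2a1, chr4:119108495-119108794, plus strand: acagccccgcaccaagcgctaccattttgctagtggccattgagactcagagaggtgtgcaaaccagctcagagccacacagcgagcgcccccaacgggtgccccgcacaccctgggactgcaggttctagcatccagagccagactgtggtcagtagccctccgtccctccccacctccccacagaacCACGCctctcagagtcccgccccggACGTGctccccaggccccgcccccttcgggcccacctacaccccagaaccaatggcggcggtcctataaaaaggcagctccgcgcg
Pgk1, chrX:106186850-106187149, plus strand: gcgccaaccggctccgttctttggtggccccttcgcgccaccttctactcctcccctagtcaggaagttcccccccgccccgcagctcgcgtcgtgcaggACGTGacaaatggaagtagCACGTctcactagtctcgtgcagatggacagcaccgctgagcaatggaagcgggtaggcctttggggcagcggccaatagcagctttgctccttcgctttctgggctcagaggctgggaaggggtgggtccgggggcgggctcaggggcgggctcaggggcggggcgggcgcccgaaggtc
Slc16a3, chr11:120948817-120949116, plus strand: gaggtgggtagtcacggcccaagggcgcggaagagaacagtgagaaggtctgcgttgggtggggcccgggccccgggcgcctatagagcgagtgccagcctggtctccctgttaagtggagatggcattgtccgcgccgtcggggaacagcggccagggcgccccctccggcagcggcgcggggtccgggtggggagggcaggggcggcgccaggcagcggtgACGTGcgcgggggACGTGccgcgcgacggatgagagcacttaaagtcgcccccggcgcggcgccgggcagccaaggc
The Ldha promoter shown held 7 matches, of which 4 came from its 2 palindromes. Ldha has another promoter in the table, starting at position 46846832, with only 2 matches, both GCGTG. The Bnip3 promoter held 5. Slc2a1, Pgk1 and Slc16a3 held 2 each.

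All levels below are the authors' log2 signals, and a gene is compared only with itself, since probe sets differ in response. Array medians lay between 5.81 and 5.91 and replicates of a group correlated across genes with r between 0.979 and 0.991. The mean of 8 LT-HSC markers was 7.57 to 7.64 per array in sorted LT-HSC, 5.17 to 5.36 in sorted GMP and 5.25 to 5.93 in the LT-HSC-derived lines. The mean of 8 GMP and primary granule markers was 6.09 to 6.48 in sorted LT-HSC, 9.70 to 9.83 in sorted GMP and 9.17 to 9.52 in the LT-HSC-derived lines. By these markers the LT-HSC-derived lines lay near the GMP and not near the cells they are named after. Pfkfb4, P4ha2 and Eno2 had means below the array medians in all 8 groups and Ldhb in the 6 groups of lines, and whether signals this low lie above background was not analysed here. In 5 members (Hk1, Bnip3, Ldhb, Higd1a and Pgam1) the probe sets adjacent by number to the chosen one belong to genes of another chromosome. All but Pgam1 have another probe set among neighbours of the gene's own chromosome. That probe set is used beside the chosen one, an alternative chosen after seeing the data, and for Hk1, Higd1a and, in the dox comparisons, Ldhb the pair disagreed.

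**Figure D1:**
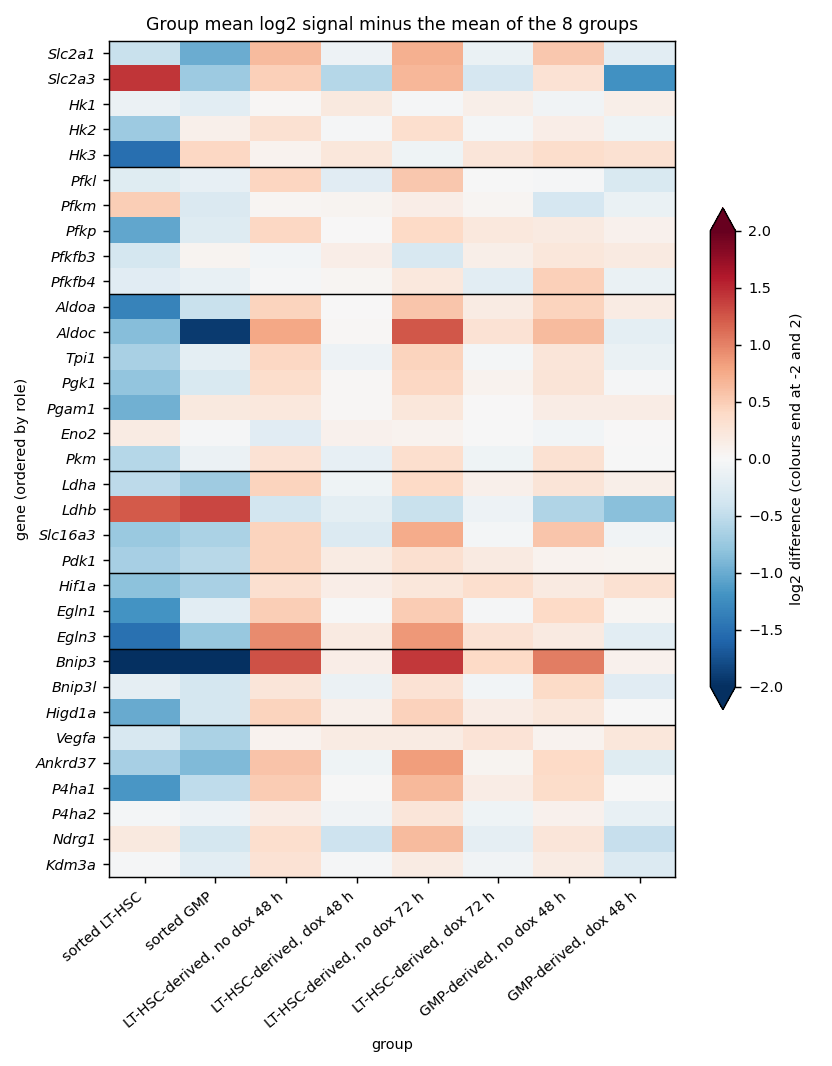
Group mean log2 signal of the 33 measured genes minus the mean of the 8 group means, ordered by role, with colour giving the log2 deviation. Most rows are low in both sorted groups and high in lines without dox, while Slc2a3 and Ldhb are among the exceptions. Colours end at -2 and 2.

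The members varied more between the groups than most genes. The range of the 8 group means had a median of 1.17 log2 over the 33 members (0.39 to 3.66) and of 0.34 over all genes. Most members lay above the array medians in all 8 groups, whereas all genes include dim ones. The members were also chosen with earlier results of these data known. Bnip3 spanned the widest range among the members, from 6.69 in sorted GMP to 10.35 at 72 h in undosed LT-HSC-derived lines. Aldoc followed, from 5.37 in sorted GMP to 8.52 in the same lines. Vegfa, the angiogenic growth factor, and Hif1a itself spanned 0.91 and 1.17.

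Sorted GMP were set against sorted LT-HSC to show how these genes differ between normal stem cells and progenitors. Most steps of lower glycolysis were higher in GMP, while the glucose transporters were lower. Of 33 members 13 were higher and 6 lower at an adjusted p under 0.05 (limma, Benjamini-Hochberg over all genes), against 32.1% of all genes called, 16.8% higher and 15.3% lower. The median difference was 0.10 for the members and -0.01 for all genes. In such bulk samples, fewer cells of a type and less RNA per cell cannot be told apart.

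Glucose entry split between its members. Slc2a3, which encodes the high-affinity transporter GLUT3, read 8.19, 8.27, 8.40 and 8.43 in LT-HSC and 5.98, 6.12, 6.16 and 6.36 in GMP, with no overlap. The difference of -2.17 ± 0.19 (SE) is 4.49-fold (adjusted p = 1.25e-09). Slc2a1, which encodes GLUT1, the widespread basal transporter, was 7.15 to 7.35 in LT-HSC and 6.31 to 6.87 in GMP (-0.55 ± 0.16, adjusted p = 0.0081). Hexokinases, which trap glucose as its phosphate, went the other way. Hk3, the myeloid form, read 5.96, 6.09, 6.11 and 6.17 in LT-HSC and between 7.97 and 8.02 in the 4 GMP arrays, 3.76-fold higher (1.91 ± 0.07, adjusted p = 2.06e-16). Hk2, the inducible form, was higher by 0.82 ± 0.10. The chosen probe set of Hk1, the constitutive form, gave -0.10 ± 0.06 (adjusted p = 0.301), but the one at its own chromosome gave -0.65 ± 0.09 (adjusted p = 5.1e-06).

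Phosphofructokinase, the committed step, differed by subunit. The platelet-type subunit gene Pfkp was 8.43 to 8.62 in GMP and 7.71 to 7.92 in LT-HSC (0.79 ± 0.10, adjusted p = 3.26e-07). The muscle-type gene Pfkm was 6.34 to 6.69 in GMP and 7.15 to 7.55 in LT-HSC (-0.78 ± 0.10, adjusted p = 4.26e-07). Neither pair of groups overlapped. The liver-type gene Pfkl gave 0.07 ± 0.14. Pfkfb3, which makes the activator fructose 2,6-bisphosphate, was higher by 0.40 ± 0.12 (adjusted p = 0.00911), and that call ended without sorted LT-HSC replicate 2 (0.28, adjusted p = 0.0573).

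Aldolase differed by isoform in the same way. Aldoa, the general form, read 9.12 to 9.34 in LT-HSC and 10.01 to 10.22 in GMP (0.89 ± 0.10, adjusted p = 5.11e-08), whereas Aldoc, the brain form, read 6.25 to 6.80 and 5.12 to 5.62 (-1.06 ± 0.23, adjusted p = 0.000756). Below aldolase, Tpi1 (triose phosphate isomerase), Pgk1 and Pkm (pyruvate kinase) were higher by 0.46 ± 0.11, 0.48 ± 0.08 and 0.45 ± 0.10. Pgam1, phosphoglycerate mutase, was higher by 1.16 ± 0.08, with no probe set at its own chromosome to set beside it. None of the 4 genes of lactate and pyruvate fate (Ldha, Ldhb, Pdk1 and Slc16a3) passed the test. Their differences lay between -0.18 and 0.12.

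Oxygen sensors were also higher in GMP. Egln1, the main HIF prolyl hydroxylase, read 6.72, 7.28, 7.30 and 7.32 in LT-HSC and 8.07 to 8.21 in GMP (0.99 ± 0.12, adjusted p = 3.16e-07), and Egln3 was higher by 0.74 ± 0.22 (adjusted p = 0.00965). Hif1a gave 0.17 ± 0.10 (adjusted p = 0.219). Of the other HIF targets, P4ha1, a collagen prolyl hydroxylase subunit, was higher by 0.64 ± 0.14. Ndrg1, a stress-responsive gene, was lower (-0.54 ± 0.14), as was Vegfa (-0.31 ± 0.09), whose call ended without sorted GMP replicate 4 (-0.24, adjusted p = 0.0537). The mitophagy genes Bnip3 and Bnip3l gave -0.17 ± 0.26 and -0.18 ± 0.09 and passed no test. Higd1a, a mitochondrial protein of the hypoxia response, was higher by 0.66 ± 0.11 on the chosen probe set and gave -0.22 ± 0.13 (adjusted p = 0.249) on the one at its own chromosome.

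The cultured lines were compared with the sorted cells they came from. Without dox, the mitophagy receptor Bnip3 was about 10-fold higher than in the sorted cells of either origin on its chosen probe set. The increase was smaller on the probe set at its own chromosome. Slc2a1, both aldolases, the oxygen sensors, Ldha and Slc16a3 were higher as well, while Ldhb was lower in both origins. At 48 h without dox, LT-HSC-derived lines had 23 of 33 members higher and 4 lower than sorted LT-HSC, against 35.2% of all genes called, 17.1% of them higher. In GMP-derived lines without dox, 22 were higher and 1 lower than in sorted GMP, against 23.5% of all genes called, 10.8% higher. The median difference was 1.06 and 0.58 for the members, against -0.036 and -0.035 for all genes. The 19 members higher in both comparisons, which share no arrays but some line names, make up 19 of 23 and 19 of 22. How many of all genes were higher in both is not given here. Immortalization, growth in medium and everything else that separates a line from a sorted cell cannot be told apart.

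Bnip3 read 6.49, 6.82, 7.05 and 7.09 in sorted LT-HSC and 9.85, 10.28 and 10.49 in the derived lines without dox, a difference of 3.35 ± 0.28 or 10.2-fold (adjusted p = 9.85e-10). In sorted GMP it read 6.51 to 6.83 and in GMP-derived lines 9.53, 9.90 and 10.46 (3.27 ± 0.28, 9.65-fold, adjusted p = 7.43e-09). By increase its rank among 19937 genes was 66 in the first comparison and 30 in the second. The probe set at its own chromosome gave smaller differences, 2.64 ± 0.30 and 2.67 ± 0.30. Its relative Bnip3l, also a mitophagy receptor, was higher by only 0.42 ± 0.10 and 0.74 ± 0.10.

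Along glycolysis, both aldolases rose. Aldoc went from 5.12 to 5.62 in sorted GMP to 7.47, 7.52 and 8.75 in GMP-derived lines (2.54 ± 0.25, adjusted p = 6e-08) and by 1.62 ± 0.25 over sorted LT-HSC in the other lines. Aldoa was higher by 1.79 ± 0.10 and 0.91 ± 0.10 in LT-HSC-derived and GMP-derived lines. Slc2a1 was 8.06, 8.27 and 8.55 in LT-HSC-derived lines and 7.89, 8.11 and 8.63 in GMP-derived lines, above every sorted array, and was higher by 1.07 ± 0.17 and 1.54 ± 0.17. Pfkm was lower in LT-HSC-derived lines (-0.46 ± 0.10) and passed no test in GMP-derived lines (-0.04 ± 0.10). Slc2a3 took opposite directions. In LT-HSC-derived lines it read 6.84, 7.23 and 8.04, below the sorted LT-HSC (-0.95 ± 0.20, adjusted p = 0.000497), and in GMP-derived lines it read 6.90, 7.27 and 7.35, above the sorted GMP (1.02 ± 0.20, adjusted p = 0.000497). The lines without dox of both origins thus lay close to each other, between the levels of the sorted cells. Hk3 in the lines lay near the level of sorted GMP. It was 7.54 to 7.78 in LT-HSC-derived lines (1.57 ± 0.08 over sorted LT-HSC, adjusted p = 4.08e-14) and 7.87 to 8.03 in GMP-derived lines (-0.06 ± 0.08 against sorted GMP, adjusted p = 0.632).

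Lactate genes separated by isoform. Ldha, whose enzyme favours lactate formation, read 9.17 to 9.35 in sorted LT-HSC and 10.14, 10.18 and 10.36 in the lines (0.97 ± 0.11), and was higher by 0.96 ± 0.11 in GMP-derived lines. Ldhb, whose enzyme favours pyruvate, read 6.89 to 7.43 in sorted LT-HSC and 5.56 ± 0.23 (SD, n = 3) in the lines (-1.60 ± 0.18, adjusted p = 8.79e-08). In GMP-derived lines it read 5.13, 5.39 and 5.48 against 6.96 to 7.53 in sorted GMP (-1.93 ± 0.18, adjusted p = 2.02e-08). The probe set of Ldhb at its own chromosome gave -1.66 ± 0.18 and -1.92 ± 0.18. Ldhb was thus the clearest exception to the general increase, although its level in the lines lay below the array medians. The lactate exporter Slc16a3 was higher by 1.19 ± 0.16 and 1.18 ± 0.16. Pdk1, which holds pyruvate back from oxidation, was higher by 1.11 ± 0.16 and 0.61 ± 0.16, and the second of these calls ended without GMP-derived no-dox replicate 2 (0.43, adjusted p = 0.0778).

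Of the oxygen-sensing genes, Hif1a read 8.24 to 8.39 in sorted LT-HSC and 9.28, 9.39 and 9.71 in the lines (1.14 ± 0.11), and 9.25, 9.26 and 9.45 in GMP-derived lines against 8.39 to 8.64 in sorted GMP (0.83 ± 0.11). Egln3 was higher by 2.43 ± 0.23 in LT-HSC-derived lines and by 0.93 ± 0.23 in GMP-derived lines, a call that ended without GMP-derived no-dox replicate 2 (0.71, adjusted p = 0.0553). Egln1 was higher by 1.69 ± 0.13 and 0.60 ± 0.13. All 3 genes of this role rose in both origins.

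With dox the increases over sorted cells were fewer, in comparisons that use the same sorted arrays. At 48 h with dox, LT-HSC-derived lines had 21 members higher and 4 lower than sorted LT-HSC, against 29.2% of all genes called (14.6% in each direction), and in GMP-derived lines with dox 15 were higher and 1 lower than in sorted GMP, against 19.8% called (10% higher and 9.76% lower). Bnip3 was higher by 2.21 ± 0.32 and 2.34 ± 0.26. There were 11 members higher in all 4 comparisons of lines with sorted cells, and Ldhb was lower in all 4. The matching shares of all genes are not given here. The 11 are Aldoa, Aldoc, Bnip3, Hif1a, Higd1a, Ldha, P4ha1, Pdk1, Pfkp, Pgk1 and Vegfa. Higd1a is among them only on its chosen probe set, since the other one gave values between -0.68 and -0.16 in the same comparisons. The call of Aldoc against sorted LT-HSC (0.87 ± 0.29, adjusted p = 0.0227) ended without sorted LT-HSC replicate 2 (adjusted p = 0.051) or 3 (0.0508) or dox replicate 2 (0.268). That of P4ha1 against sorted GMP (0.51 ± 0.14, adjusted p = 0.00961) ended without GMP-derived dox replicate 2 (adjusted p = 0.0518).

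**Figure D2:**
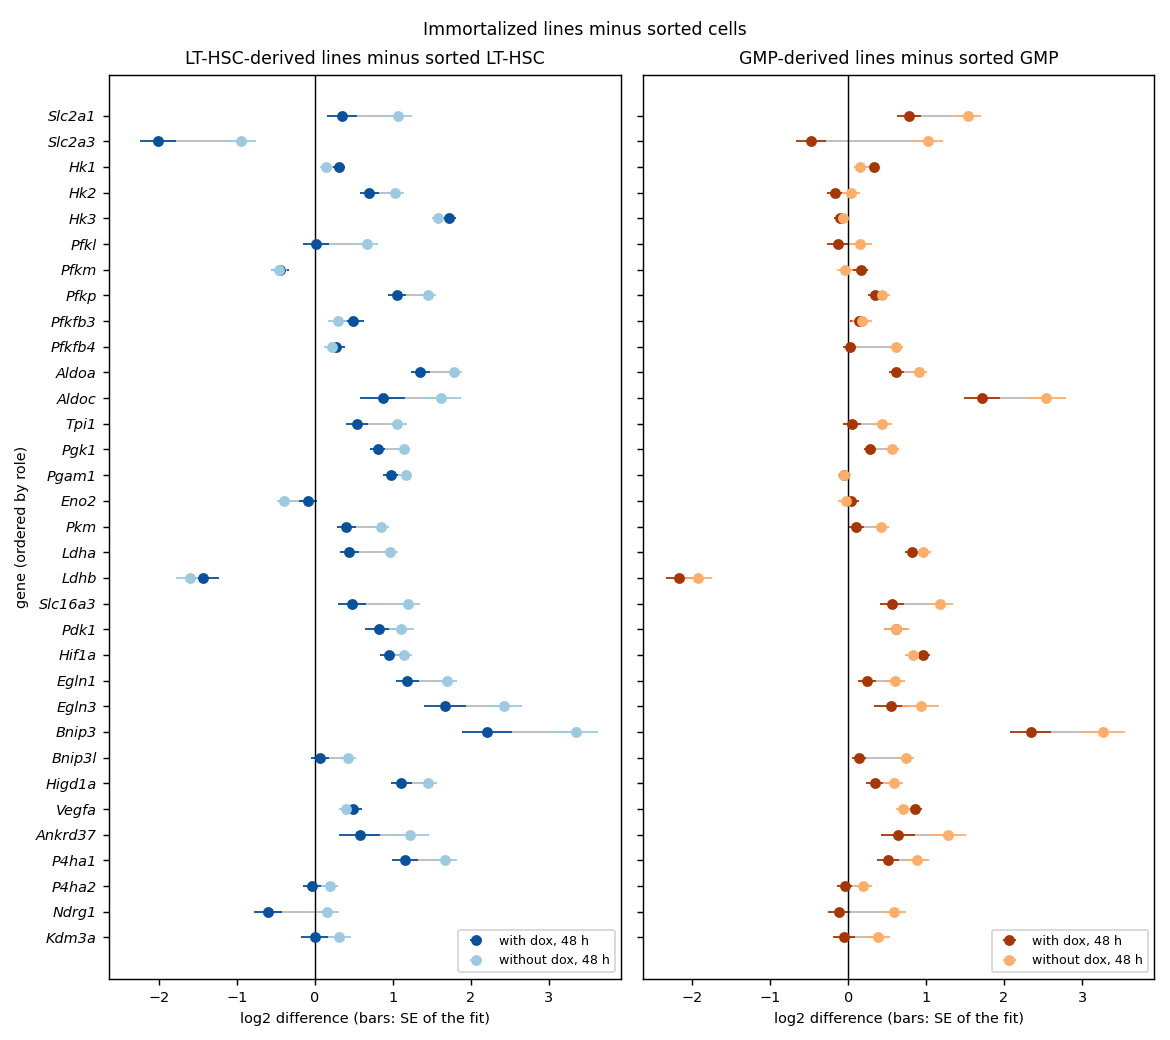
Log2 differences of 33 genes between cultured lines and the sorted cells of their origin, with the SE of the fit as bars, for lines with dox (dark) and without (light) at 48 h, in 1 panel per origin. Bnip3 lies farthest right in both panels and Ldhb farthest left among GMP-derived lines. Without dox Slc2a3 changes side between the panels, whereas with dox it lies on the left in both.

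Lines with dox were compared with lines without it. In the mean of the 3 contrasts most members fell with dox, Slc2a3 and Bnip3 most. Without the line as a block no single contrast called most of them, whereas with it the 72 h contrast did. By sign alone, 24 of 33 were lower in all 3 contrasts, a count for which the share over all genes is not given here. The mean gives the 3 contrasts equal weight, and 2 of them are of LT-HSC-derived lines. Over the mean of the 3 dox contrasts, 23 of 33 members fell and 2 rose, against 15.2% of all genes called, 7.49% lower and 7.69% higher. Higd1a among the 23 and Hk1 among the 2 were called only on their chosen probe sets. The probe sets at their own chromosomes gave -0.18 ± 0.09 (limma, adjusted p = 0.203) and -0.09 ± 0.06 (adjusted p = 0.462). Ldhb, in contrast, was called higher only on the probe set at its own chromosome (0.40 ± 0.11). The median of the members was -0.32 and that of all genes -0.005. The fall was modest in size. Only Slc2a3 and Bnip3 fell more than 2-fold, by 2.27-fold and 2.03-fold. Bnip3 fell short of 2-fold on the probe set at its own chromosome (-0.97 ± 0.19) and with the line as a block (-0.98 ± 0.12).

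There were 8 pairs of arrays that hold the same line with and without dox at the same time: 2 for LT-HSC-derived lines at 48 h, 3 at 72 h and 3 for GMP-derived lines. In 19 of 33 members (57.6%) the dox array was lower in all 8 pairs, against 5.91% of all genes. Hk1 and Vegfa were higher in all 8 pairs, 2 of 33 (6.06%) against 5.98% of all genes, and 12 members were mixed. The pairs are not independent, since a line name recurs at both times and in both origins.

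Each contrast alone called fewer members. At 72 h in LT-HSC-derived lines 13 fell and 1 rose, against 7.15% of all genes called, 3.72% lower and 3.43% higher. In GMP-derived lines 10 fell and none rose, against 10.9% called, 5.18% lower and 5.75% higher. An unadjusted p under 0.05 was reached there by 18 members and by 4196 of all 19937 genes. At 48 h in LT-HSC-derived lines, with 2 dox arrays, only Slc2a3 fell (adjusted p = 0.0486), against 0.441% of all genes called. Here 22 members had an unadjusted p under 0.05, as did 1456 of all genes. With the line as a block, 7 members fell at 48 h (1.48% of all genes called) and 20 fell and 2 rose at 72 h (9.7% called). The added calls at 48 h were Slc2a1, Aldoc, Ldha, Bnip3, Egln1 and Ndrg1, and at 72 h Hk2, Pfkfb3, Ldha, Bnip3l, Egln3, Ankrd37, P4ha1 and P4ha2. In GMP-derived lines the block added Aldoa, Egln1 and Ankrd37 (13 called, against 11.5% of all genes). The 72 h and the GMP-derived contrast, which share no arrays, had 9 falling members in common, 9 of 13 and 9 of 10: Aldoc, Bnip3, Ndrg1, Pfkfb4, Pgk1, Slc16a3, Slc2a1, Slc2a3 and Tpi1. The overlap of the 2 contrasts over all genes is not given here.

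Single arrays weighed on these counts. At 72 h, 4 members were called without dox replicate 1, 6 without no-dox replicate 1, 8 without no-dox replicate 2 and 9 without dox replicate 2. In GMP-derived lines 3 were called without no-dox replicate 2 and 5 without dox replicate 1. The 48 h count in LT-HSC-derived lines was 3 without no-dox replicate 1 and 0 without any one of the other 4 arrays. Without no-dox replicate 2 the GMP-derived calls of Slc2a1, Aldoc, Tpi1, Pgk1, Bnip3, Ndrg1 and Slc16a3 ended, with adjusted p between 0.0576 and 0.395. Without dox replicate 1 those of Aldoc, Tpi1, Pgk1, Bnip3 and Slc16a3 ended. With all arrays and the line as a block, every one of these genes was called lower in GMP-derived lines, with adjusted p between 9.37e-05 and 0.0211. At 72 h the Aldoc call held only without no-dox replicate 3 among the single arrays left out, and the Bnip3 call only without dox replicate 3. The Slc16a3 call at 72 h ended without dox replicate 1 (-0.65, adjusted p = 0.0503). In the 72 h contrast Slc2a1, Slc2a3 and Ndrg1 kept their call under every alternative tried, and in the GMP-derived contrast Slc2a3 and Bnip3l did. Pfkfb4 kept its GMP-derived call under the alternatives that hold it, but the filter on dim probe sets removes this gene.

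**Figure D3:**
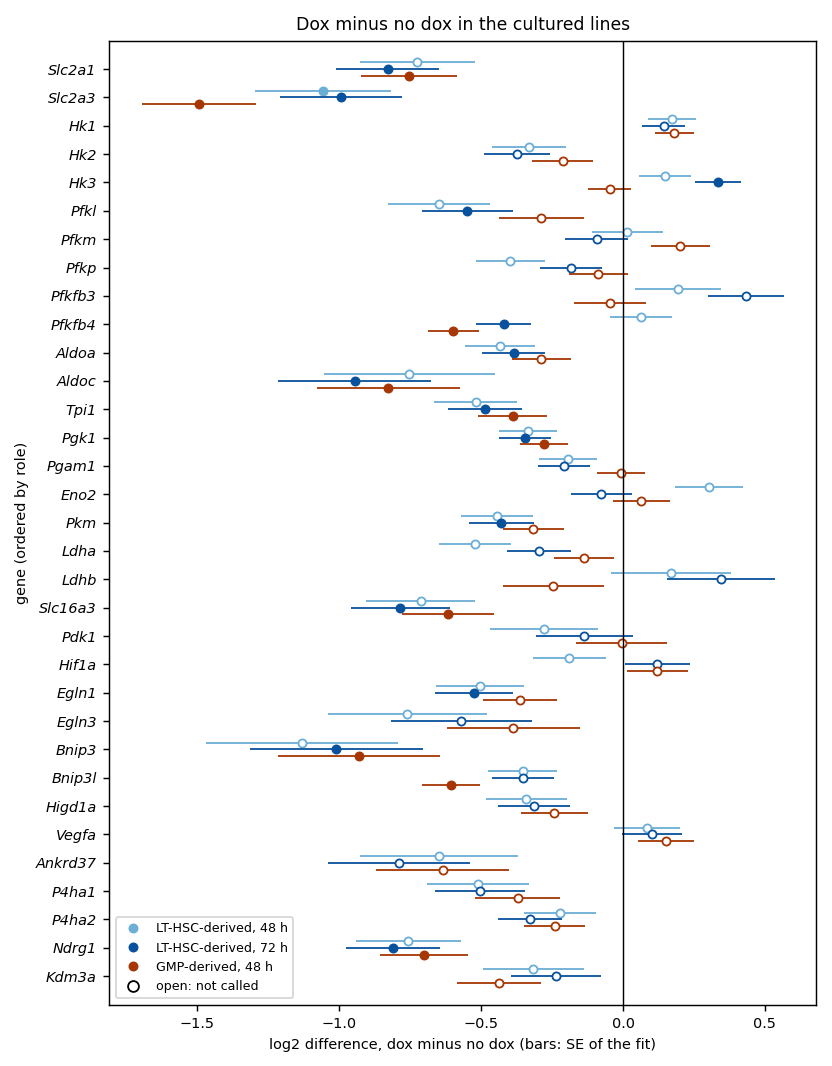
Log2 difference between lines with and without dox for 33 genes in 3 contrasts, with the SE of the fit as bars, filled where limma's adjusted p was under 0.05 and open otherwise. Most points lie left of 0, and Slc2a3 in GMP-derived lines lies farthest left.

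Glucose transporters fell in both origins. Slc2a3 in GMP-derived lines read 6.90, 7.27 and 7.35 without dox and 5.60, 5.64, 5.65 and 5.82 with it, a fall to about the level of the array medians (-1.50 ± 0.20, adjusted p = 2.23e-05). In LT-HSC-derived lines it read 7.29, 7.67 and 7.68 without and 6.15, 6.47 and 7.05 with dox at 72 h (-0.99 ± 0.22, adjusted p = 0.00525), and 6.84, 7.23 and 8.04 without and 6.21 and 6.42 with dox at 48 h (-1.06 ± 0.24). Groups did not overlap in any of the 3 contrasts, and the 8 pairs gave -1.71 to -0.63. Slc2a1 read 8.35, 8.37 and 8.38 without and 7.37, 7.42 and 7.83 with dox at 72 h (-0.83 ± 0.18, adjusted p = 0.00547), and 7.89, 8.11 and 8.63 without and 7.20, 7.30, 7.48 and 7.83 with dox in GMP-derived lines (-0.76 ± 0.17, adjusted p = 0.00369). The second of these calls ended without no-dox replicate 2 (-0.54, adjusted p = 0.0643). The 8 pairs of Slc2a1 gave -1.01 to -0.51.

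Hexokinases did not follow the transporters as a group. Hk2 fell by 0.31 ± 0.07 in the mean contrast (adjusted p = 0.00257). Hk3 rose by 0.15 ± 0.05 (adjusted p = 0.0415), a call that ended under 16 of 26 alternatives. Hk1 rose by 0.17 ± 0.04 (adjusted p = 0.0103) on the chosen probe set, with an adjusted p of 0.0525 with the line as a block, and gave -0.09 ± 0.06 (adjusted p = 0.462) on the probe set at its own chromosome. The direction of Hk1 therefore differs between its probe sets.

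Apart from Aldoc, no gene of the steps from phosphofructokinase to pyruvate kinase fell as far as the glucose transporters in the mean contrast. In the mean contrast Pfkl fell by 0.49 ± 0.09, Pfkp by 0.22 ± 0.06 and Pfkfb4 by 0.32 ± 0.06, while Pfkm and Pfkfb3 gave 0.04 ± 0.07 and 0.19 ± 0.08 and passed no test. With the line as a block, Pfkfb3 was called higher in the mean contrast (0.21 ± 0.06, adjusted p = 0.0234) and at 72 h (0.43 ± 0.10, adjusted p = 0.00952). The call of Pfkp ended without LT-HSC-derived dox 48 h replicate 1 (adjusted p = 0.0978) and without GMP-derived no-dox replicate 2 (adjusted p = 0.0502). Aldoc fell most of the enzymes. At 72 h it read 8.19, 8.64 and 8.72 without and 7.37, 7.64 and 7.70 with dox (-0.95 ± 0.27, adjusted p = 0.0324). In GMP-derived lines it read 7.47, 7.52 and 8.75 without and 6.53, 6.87, 7.47 and 7.48 with dox, with the groups meeting at 7.47 (-0.83 ± 0.25, adjusted p = 0.0339). Without no-dox replicate 2, the array at 8.75, the difference was -0.41 (adjusted p = 0.395). With the line as a block and all arrays in, Aldoc fell by 0.96 ± 0.13 in GMP-derived lines (limma, adjusted p = 9.37e-05). Its 8 pairs gave -1.35 to -0.55. Pgk1 read 11.68, 11.81 and 11.83 without and 11.32, 11.46 and 11.51 with dox at 72 h (-0.35 ± 0.09, adjusted p = 0.0191) and gave -0.28 ± 0.08 in GMP-derived lines. Aldoa, Tpi1 and Pkm fell by 0.37 ± 0.07, 0.47 ± 0.08 and 0.40 ± 0.07 in the mean contrast, and Pgam1 and Eno2 passed no test.

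The gene of the lactate exporter fell with those of the glucose transporters. Slc16a3 read 7.88, 8.29 and 8.38 without and 7.12, 7.32 and 7.75 with dox at 72 h (-0.78 ± 0.17, adjusted p = 0.00595), and 7.73, 8.02 and 8.21 without and 7.13, 7.27, 7.44 and 7.64 with dox in GMP-derived lines (-0.62 ± 0.16, adjusted p = 0.0127). Ldha fell by 0.32 ± 0.07 in the mean contrast (adjusted p = 0.00131), with -0.52 ± 0.13 in LT-HSC-derived lines at 48 h, -0.30 ± 0.11 at 72 h and -0.14 ± 0.11 in GMP-derived lines. Pdk1 gave -0.14 ± 0.10. Ldhb gave -0.25 ± 0.18 on the chosen probe set and 0.40 ± 0.18 on the other in GMP-derived lines, neither of which passed the test. In the mean contrast it gave 0.09 ± 0.11 on the chosen probe set and rose by 0.40 ± 0.11 (adjusted p = 0.0136) on the one at its own chromosome.

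Both mitophagy receptors fell in the mean contrast, Bnip3l by 0.44 ± 0.06 (adjusted p = 2.92e-05). Bnip3 at 72 h read 10.22, 10.40 and 10.44 without and 8.89, 9.28 and 9.86 with dox (-1.01 ± 0.30, adjusted p = 0.0434). In GMP-derived lines it read 9.53, 9.90 and 10.46 without and 8.25, 8.94, 9.27 and 9.67 with dox, which overlap (-0.93 ± 0.28, adjusted p = 0.0341). Both calls ended on the probe set at its own chromosome (-0.90, adjusted p = 0.0941, and -0.85, adjusted p = 0.0714), whereas the mean contrast held there (-0.97 ± 0.19, adjusted p = 0.000628). Every dox array of Bnip3 still lay above every sorted array. Bnip3l read 10.09, 10.26 and 10.45 without and 9.45, 9.55, 9.79 and 9.86 with dox in GMP-derived lines (-0.61 ± 0.10, adjusted p = 0.000245), and gave -0.35 ± 0.11 at 72 h in LT-HSC-derived lines (adjusted p = 0.0501, and 0.00974 with the line as a block). It was lower with dox in all 8 pairs.

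Among sensors and remaining targets, Hif1a itself did not follow its targets and gave 0.02 ± 0.07 in the mean contrast (adjusted p = 0.931). Egln1 fell by 0.46 ± 0.08 and Egln3 by 0.57 ± 0.15. Ndrg1 at 72 h read 7.19, 7.52 and 7.56 without and 6.57, 6.61 and 6.67 with dox (-0.81 ± 0.17, adjusted p = 0.00319), and gave -0.70 ± 0.16 in GMP-derived lines (adjusted p = 0.00324). Ankrd37, a HIF-induced ankyrin repeat gene, fell by 0.69 ± 0.15 in the mean contrast, P4ha1 by 0.46 ± 0.09, P4ha2 by 0.26 ± 0.07 and Kdm3a, a histone demethylase, by 0.33 ± 0.09. Without LT-HSC-derived dox 48 h replicate 1 the calls of Egln3 (adjusted p = 0.0537) and Kdm3a (adjusted p = 0.12) ended. Vegfa gave 0.11 ± 0.06 (adjusted p = 0.281). Of 6 other HIF targets 5 fell and Vegfa alone passed no test.

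**Figure D4:**
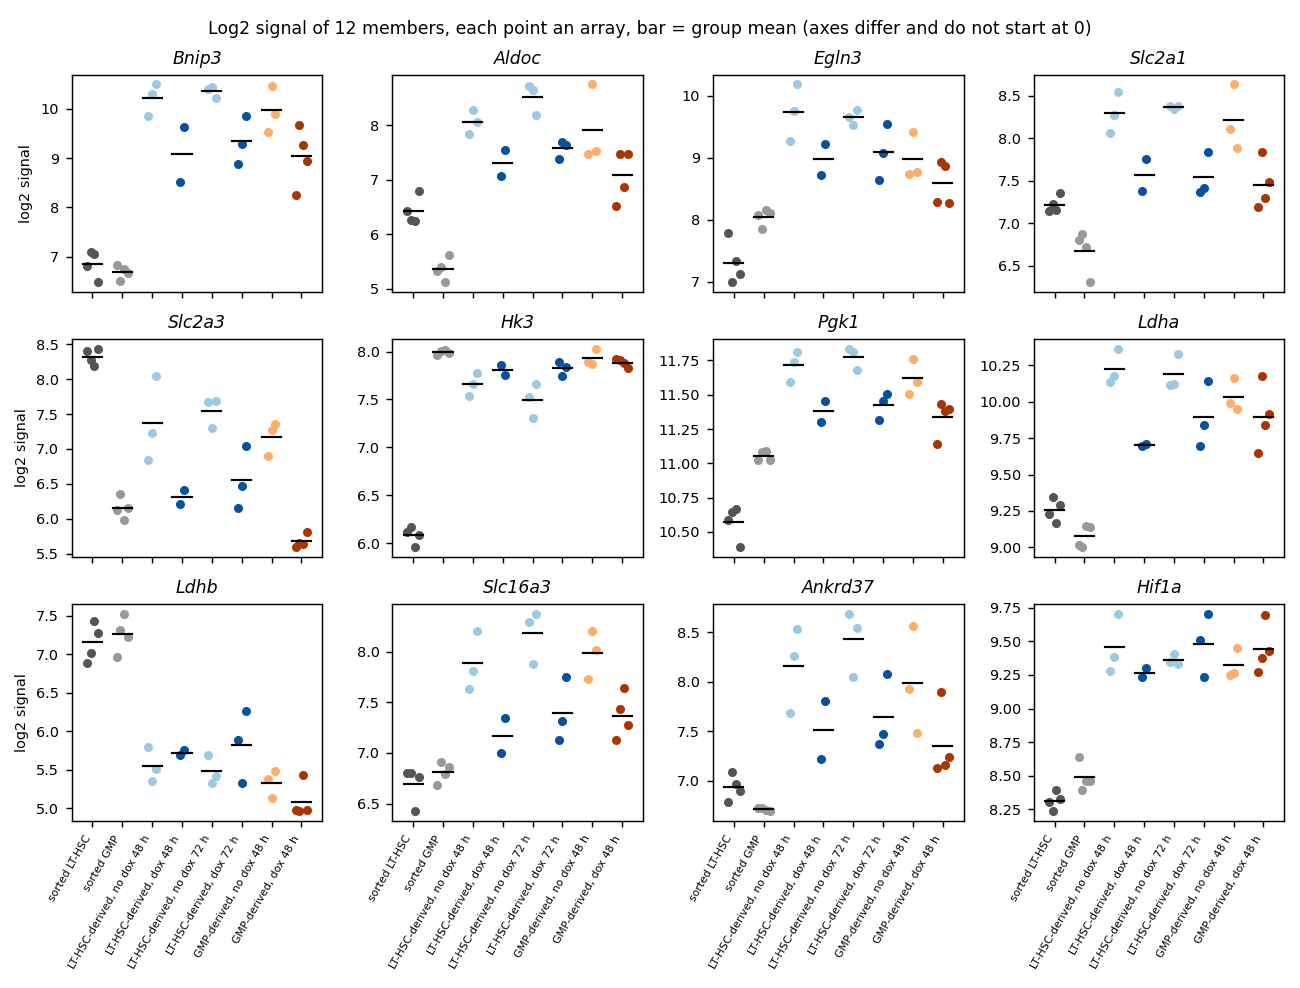
Log2 signal of 12 genes on each of the 26 arrays by group, with points for arrays and bars for group means; axes differ between panels and do not start at 0. In Bnip3, Aldoc, Slc2a1 and Slc16a3 the sorted arrays are low, the lines without dox high and the group means of the lines with dox between them, whereas Hif1a is high in all lines.

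The effect of dox was compared between origins at 48 h in an interaction term. Only Pfkfb4, the kinase and phosphatase that sets fructose 2,6-bisphosphate, differed (0.66 ± 0.14, adjusted p = 0.0486, 1 of 33 against 0.231% of all genes, 0.161% higher and 0.0702% lower). It read 5.08, 5.20 and 5.21 without and 5.22 and 5.23 with dox in LT-HSC-derived lines, and 5.51, 5.71 and 5.74 without and 5.00 to 5.12 with dox in GMP-derived lines. All these levels lie below the array medians. Its adjusted p was 0.144 with the line name as a block, 0.067 with quantile normalization and 0.0678 with median centring. The call also ended when any one of 11 of the 12 arrays of this comparison was left out, all but GMP-derived no-dox replicate 2, with adjusted p between 0.0603 and 0.206. No other member passed, with 95% intervals of the difference that reach from -1.13 at the lowest bound to 1.09 at the highest.

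Origin and time separated few members. Without dox at 48 h, LT-HSC-derived lines were lower than GMP-derived lines in Pfkfb4 (-0.49 ± 0.10, adjusted p = 0.00219) and Hk3 (-0.27 ± 0.08, adjusted p = 0.0443), 2 of 33 against 6.8% of all genes called (3.52% higher and 3.28% lower). The Hk3 call ended with quantile normalization (adjusted p = 0.0709), with the trended prior (adjusted p = 0.0618), with the line name as a block (adjusted p = 0.108) and without any one of 5 of the 6 arrays, the exception being LT-HSC-derived no-dox replicate 3. Without LT-HSC-derived no-dox replicate 1 the count was 4, and without GMP-derived no-dox replicate 1 it was 1. With dox none of 33 differed between the origins by limma, against 2.11% of all genes (1.17% higher and 0.943% lower). An unadjusted p under 0.05 was reached by 1996 of all genes and by 2 members (Ldhb at 0.64 ± 0.20 and Slc2a3 at 0.64 ± 0.23). With the line name as a block both were called higher in LT-HSC-derived lines, Ldhb by 0.76 ± 0.17 (adjusted p = 0.0262) and Slc2a3 by 0.82 ± 0.19 (adjusted p = 0.0321), against 2.45% of all genes called. Between 72 h and 48 h limma called none with dox (0% of all genes) and none without dox (0.181% of all genes, 0.12% higher and 0.0602% lower). At an unadjusted p under 0.05 there were 1 and 2 members, beside 450 and 2588 of all genes. The dox effect did not differ by test between 72 h and 48 h in any member (0% of all genes called). At an unadjusted p under 0.05 there were 2 members and 1132 of all genes.

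Related genes outside the members were read from lists of the pathways. In sorted GMP over sorted LT-HSC, where 16.8% of all genes were higher and 15.3% lower, genes of oxidative metabolism were broadly higher. All 18 measured respiratory chain genes were higher, with Cox5a at 0.89 ± 0.08, and 18 of 20 genes of the citrate cycle and pyruvate dehydrogenase, with 1 lower. Of 7 pentose phosphate genes 6 were higher, led by Pgd (1.72 ± 0.09), and 14 of 15 proliferation genes, led by Rrm2 (1.52 ± 0.12). Of 22 other glycolysis genes 3 were higher and 6 lower. LT-HSC-derived lines without dox were also higher than sorted LT-HSC in 14 of 20 citrate cycle genes (2 lower), 17 of 18 respiratory chain genes, 6 of 7 pentose phosphate genes and 10 of 15 proliferation genes (none lower in these 3 lists). Of all genes 17.1% were higher and 18.1% lower in that comparison. In GMP-derived lines without dox, 8 of 20 citrate cycle genes and 4 of 15 proliferation genes were lower than in sorted GMP and none higher, while 12 of 32 other HIF targets were higher and 2 lower, with Stc2 at 2.31 ± 0.16 and Gbe1, the glycogen branching enzyme, at 1.61 ± 0.16. There, 10.8% of all genes were higher and 12.7% lower. In LT-HSC-derived lines without dox 15 of 32 other HIF targets were higher and 4 lower, with Ero1a, an oxidase of protein folding, at 2.95 ± 0.11 and Car2, a carbonic anhydrase, at -3.93 ± 0.27.

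With dox, 12 of 32 other HIF targets fell in the mean contrast, 2 rose and 18 passed no test, beside 7.49% of all genes lower and 7.69% higher. The list median was -0.10. Plod2, a collagen lysyl hydroxylase, fell by 1.29 ± 0.17 and the haem oxygenase Hmox1 by 0.96 ± 0.15. In LT-HSC-derived lines Plod2 fell by 1.96 ± 0.33 at 48 h and 1.64 ± 0.29 at 72 h. It was not among the 3 largest calls of its list in GMP-derived lines. Of 22 other glycolysis genes 4 fell and 1 rose, with Adpgk, an ADP-dependent glucokinase, at -0.60 ± 0.12. Of 14 genes of oxygen sensing and HIF partners 2 fell, Vhl (-0.28 ± 0.06) and Cited2 (-0.20 ± 0.05). Of 20 citrate cycle genes 3 and 1 of 18 respiratory chain genes rose and none fell, and proliferation genes had 2 of 15 in each direction. Counts of 1 or 2 in such lists are close to what the shares of all genes would give.

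**Figure D5:**
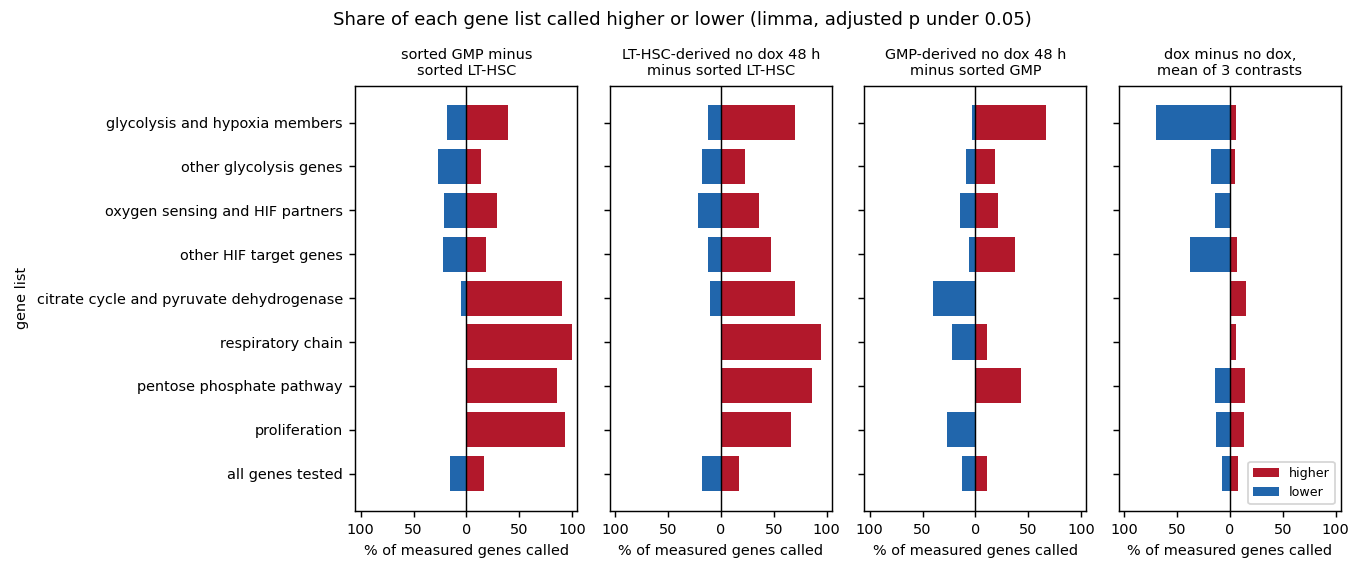
Share of the measured genes of each list that limma called higher (red, to the right) or lower (blue, to the left) in 4 comparisons, with all genes tested at the bottom. The bar of the glycolysis and hypoxia genes points right in both line comparisons and left with dox, while the citrate cycle bar points right in sorted GMP and LT-HSC-derived lines and left in GMP-derived lines.

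Myeloid differentiation markers moved with the dox comparison. In the mean contrast 8 of 9 late neutrophil markers and 8 of 9 monocyte and macrophage markers fell, with list medians of -1.16 and -0.97. Of all genes 7.49% were lower in that contrast. The mean of the 9 late neutrophil markers per array was 9.74 to 9.87 in GMP-derived lines without dox and 7.45 to 7.71 with it, and that of the 9 monocyte markers was 8.29 to 9.41 and 6.98 to 8.22. At 72 h in LT-HSC-derived lines the late neutrophil mean was 8.64 to 10.20 without and 7.78 to 8.44 with dox. Immediate early genes, which respond to handling of cells, fell in 7 of 10, and their mean was 6.28 to 7.25 without and 5.87 to 6.25 with dox in GMP-derived lines. They were lower in sorted GMP than in sorted LT-HSC (6 of 10), and lower in lines without dox than in sorted cells (8 of 10 for LT-HSC-derived and 6 of 10 for GMP-derived lines). The shares of all genes lower in these comparisons were, in the same order, 15.3%, 18.1% and 12.7%. Against the sorted cells, 7 of 9 late neutrophil markers were higher in lines without dox of either origin. Of all genes 17.1% were higher in LT-HSC-derived and 10.8% in GMP-derived lines. The part of these markers in the members' differences was not tested.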

How the data were processed

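Total RNA had been amplified with a kit for small amounts and hybridized to Affymetrix gene arrays, per the labels' protocols. The deposited table holds the authors' log2 signals for 34760 probe sets on 26 arrays, but how background was corrected and arrays were normalized is not stated. R 3.1.1 and limma are named in the submitters' processing notes. Of the probe sets 21640 carry 1 gene symbol, 1321 several and 11799 none, and only the first kind was used, with the highest mean choosing 1 probe set per gene (19937 genes). The values were used as deposited and fitted with limma 3.58.1 in R 4.3.3, with 1 mean per group over all 26 arrays, 15 contrasts and Benjamini-Hochberg adjustment over all genes at 0.05. The number of arrays limits the precision. The members and lists were chosen with earlier results of these data known. All members are described by role, and of other genes at most 3 called genes per list and comparison, those of largest absolute difference, may be named. The line names in the labels pair cultured arrays: deviations of the same line with and without dox correlated at 0.212 to 0.345 and 0.291 to 0.401 at 48 h (LT-HSC-derived and GMP-derived) and at -0.057 to 0.321 at 72 h. Sorted arrays share only a number. Alternatives were a line block, a filter on dim probe sets, quantile normalization, median centring, the mean of a gene's probe sets, a trended robust prior, fits on only the compared groups, and leaving out each array. The fit was tested on simulated data.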

Additional observations from a re-analysis of the deposited data

Results flagged for a closer look

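In 11 of 99 sets of 4 arrays of a member, 1 array lay far from the other 3 by Dixon's test, where chance gives about 1 in 20. In sorted LT-HSC, replicate 4 stood apart in Pfkp (7.92, the others 7.71 to 7.73), Eno2 (5.11) and Higd1a (8.78, the others 9.40 to 9.45). Replicate 2 stood apart in Tpi1 (9.60), replicate 1 in Egln1 (6.72, the others 7.28 to 7.32) and replicate 3 in Slc16a3 (6.42, the others 6.76 to 6.80). In sorted GMP, replicate 1 was low in Pdk1 (7.05) and replicate 4 in Vegfa (7.20). In GMP-derived lines with dox, replicate 2 was high in Pdk1 (8.39, the others 7.94 to 7.98) and Ankrd37 (7.89, the others 7.13 to 7.23), and replicate 3 in Ldhb (5.43, the others 4.96 to 4.98).

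The dox effect at 48 h differed between LT-HSC-derived and GMP-derived lines in Pfkfb4, by 0.66 (limma, adjusted p = 0.0486), at levels below the array medians.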

How the results depend on the processing

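Of 3143 alternative values for 202 gene results, 2902 kept direction and side of the threshold, 175 lost the call, 55 gained one and 11 changed sign. Where an alternative moved a count of called members, the cause was not tested, apart from the dim filter on Pfkfb4 given below. Fits on fewer arrays or genes have less to estimate the spread from. For dox in LT-HSC-derived lines at 48 h (1 called) 7 members were called under the line block, 2 with the dim filter, 0 with quantile normalization and 0 on only the compared groups. At 72 h (14 called) it was 22 with the block and 9 on only the compared groups, and in GMP-derived lines (10 called) 5 on only those groups. The count between origins with dox (0 called) was 2 with the line-name block, 1 with the mean of probe sets and 1 on only the compared groups. Without dox (2 called) it was 1 with that block, with quantile normalization, with the trended prior and on only the compared groups. The Pfkfb4 interaction (1 called) gave 0 with the line-name block, quantile normalization, median centring and only the compared groups. The dim filter also gave 0, but it removes Pfkfb4, so that count was fixed in advance. The block moved no other count by over 1.5 times. With each array left out in turn, called members numbered 18 to 19 in sorted GMP against sorted LT-HSC, 0 to 3, 4 to 14 and 3 to 14 in the 3 dox contrasts and 21 to 26 in their mean. Lines against sorted cells gave 19 to 24 (dox) and 27 to 28 (no dox) for LT-HSC-derived lines, then 13 to 16 (dox) and 19 to 24 (no dox) for GMP-derived lines. Between origins the counts were 0 with dox and 1 to 4 without, and the interaction of origin gave 0 to 1. Signs changed for Hk1 and Higd1a, through the probe set used. Hk1 with the mean of its probe sets gave -0.13 in LT-HSC-derived dox lines against sorted cells. The probe set at its own chromosome gave -0.56 there, -0.10 for dox in LT-HSC-derived lines at 48 h, -0.10 in GMP-derived lines and -0.0891 in the mean contrast. For Higd1a that probe set gave -0.22 in sorted GMP against LT-HSC and 0.0365 for dox at 72 h. Against sorted cells it gave -0.68 (dox) and -0.16 (no dox) in LT-HSC-derived lines, then -0.30 (dox) and -0.24 (no dox) in GMP-derived lines.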
